A study of Homo sapiens with 6 samples.

Results

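The protein-coding genes of the short arm of chromosome 16 that start between 1 and 12 Mb of hg38 were followed along their position in cells with a control shRNA and cells with an shRNA against VprBP. The members were the rows of the gene table of type protein_coding on chromosome 16 with a start from 1000000 to 12000000. SLX4 and genes of the RPS, RPL, MRPL, MRPS and NDUF families were left out (5 rows). This left 141 genes of 21494 in the table. The window was chosen because a run of neighbouring genes in it had 0 counts after knockdown. The difference between the groups therefore chose these genes, and no p-values are printed for them. Calls of members use an adjusted p-value cutoff and are counted as a description only. At the window's upper border, SNX29 was the last gene inside, with a log2 fold change of -0.34, and CPPED1 just above had 2.37. LMF1, just below the lower border, had 1.64.

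The RNA-seq data covered 6 samples, all labelled as the human melanoma line G361 and all with LD611 as source name. In 3 of them (Control sh, genotype WT) a control shRNA was expressed, and in the other 3 (VprBP sh, genotype DCAF1 Knockdown) an shRNA targeted the kinase VprBP, encoded by DCAF1. By the methods, this was 1 shRNA sequence delivered by lentivirus, with puromycin selection of the infected population. Total counts ran from 18195949 to 26883948 per sample. DCAF1 had 688, 893 and 884 counts in Control sh against 681, 488 and 628 in VprBP sh, a log2 fold change of -0.58 (SE 0.17, adjusted p = 0.0125, edgeR quasi-likelihood). With library size alone it was -0.37 (adjusted p = 0.0851). On the normalized scale VprBP sh replicate 1 had 760, just under the 797 of Control sh replicate 1, and the other VprBP sh samples had 507 and 481. Values were given for 21494 genes, each with a sum of 10 or more counts across the 6 samples. Of 8 melanocyte markers, TYR, DCT, SOX10 and S100B were not among these genes. MITF, PMEL, MLANA and TYRP1 summed to between 184 and 210 counts per Control sh sample and between 235 and 367 per VprBP sh sample, most of them from MITF. MLANA and TYRP1 had at most 5 counts in any sample. Of 12 urothelial and basal epithelial markers 11 had values, and they summed to between 228743 and 294633 counts per Control sh sample and between 68326 and 142435 per VprBP sh sample. The list did not move one way. KRT14, a basal keratin, had at least 62464 counts in each Control sh sample and at most 10 in VprBP sh. KRT5, KRT7, KRT17, TP63, UPK1B and UPK2 were also lower in each VprBP sh sample. CDH1 had 8919 to 10449 counts in Control sh against 5011 to 9233 in VprBP sh. KRT19, a keratin of simple epithelia, was higher, from 24214 to 31075 counts per Control sh sample against 35051 to 88962, as were EPCAM (3901 to 4709 and 5528 to 7657) and GATA3 (at most 7 and at least 1334). These libraries thus hold few melanocyte transcripts for samples labelled melanoma, and the part of the epithelial difference in the results was not tested. Mitochondrial genes took at most 1.98% of the reads of a Control sh sample and at least 4.10% of those of a VprBP sh sample, and the part of this difference in the results was not tested either. In bulk RNA, fewer cells of a type and less RNA per cell cannot be told apart. The labels do not say whether the replicates are separate cultures, so the errors cover only the spread between these samples.

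Genes in this part of the chromosome are packed densely and many lie head to head or overlap a neighbour on the other strand. They have little function in common. The window holds PPL, which encodes periplakin, a linker of keratin filaments to the cornified envelope and desmosomes. It also holds CREBBP, a histone acetyltransferase, TSC2, an inhibitor of mTORC1, USP7, a deubiquitinase that acts on MDM2, and CIITA, the master regulator of MHC class II genes. By GENCODE 44, 83 of the 141 members share bases with another protein-coding gene, and it is not stated whether reads were counted by strand (the methods name a strand-specific kit and the labels another), so the split of reads within such pairs is uncertain. Near-identical copies elsewhere make the counts of PKD1 and EEF2KMT uncertain, and read-through transcripts those of CORO7, PAM16 and CORO7-PAM16.

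The run of genes without counts went from CDIP1 to PPL, on chromosome 16 from 4510669 to 4960741. It spanned 450 kb and held 11 members. All 11 had 0 counts in each of the 3 VprBP sh samples. Of the 14 protein-coding genes that GENCODE 44 places there, C16orf96, SEPTIN12 and SMIM22 were not among the genes with values. RefSeq promoter windows (GRCh38.p14, 300 bases around the start) were matched for 10 of the 11 genes, not for PPL. The windows printed here are those of the first gene of the run, the shared start of a head-to-head pair (GLYR1 and UBN1), and of SEC14L5. SEC14L5 is the next member by start after the run and was high in VprBP sh. It starts at 4958330, inside the interval of the run, where it overlaps PPL. Capitals mark CACGTG (the E-box), TGACGTCA (the cAMP response element) and GGGCGG or its reverse complement (the GC box), searched on both strands.
CDIP1, chr16:4538724-4539023, minus strand: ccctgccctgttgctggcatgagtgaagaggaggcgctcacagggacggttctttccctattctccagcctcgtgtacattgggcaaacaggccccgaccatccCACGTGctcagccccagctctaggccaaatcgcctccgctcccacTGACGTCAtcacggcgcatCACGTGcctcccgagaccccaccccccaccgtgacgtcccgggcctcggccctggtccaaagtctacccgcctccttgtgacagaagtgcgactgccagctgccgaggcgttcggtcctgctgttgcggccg
GLYR1, chr16:4847239-4847538, minus strand: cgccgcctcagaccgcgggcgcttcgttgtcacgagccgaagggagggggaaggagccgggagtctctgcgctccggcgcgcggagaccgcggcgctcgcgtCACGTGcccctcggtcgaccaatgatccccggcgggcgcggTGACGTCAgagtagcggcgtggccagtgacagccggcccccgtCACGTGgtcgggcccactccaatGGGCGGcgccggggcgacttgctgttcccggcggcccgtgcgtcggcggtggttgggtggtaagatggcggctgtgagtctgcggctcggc
SEC14L5, chr16:4958080-4958379, plus strand: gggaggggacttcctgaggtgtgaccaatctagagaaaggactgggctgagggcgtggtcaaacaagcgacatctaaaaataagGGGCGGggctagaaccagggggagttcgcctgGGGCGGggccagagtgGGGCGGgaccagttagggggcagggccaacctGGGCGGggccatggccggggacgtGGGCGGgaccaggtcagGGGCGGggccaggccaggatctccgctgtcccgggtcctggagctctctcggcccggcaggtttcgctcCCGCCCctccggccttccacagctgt
The windows of GLYR1 and UBN1 share 292 bases, so 1 is printed for both. CDIP1 and GLYR1 each hold 2 E-boxes and 1 cAMP response element, while SEC14L5 holds 7 GC boxes and neither of the other motifs. The 2 windows of the run were printed because they carry these motifs, and that of UBALD1, also in the run, holds none of the 3. Across 35116 RefSeq windows of this length, 7.26% hold CACGTG, 1.85% TGACGTCA and 45.0% GGGCGG. Of the 14 windows matched for genes of the run, 3 hold CACGTG, 3 TGACGTCA and 11 GGGCGG, with the overlapping windows of GLYR1 and UBN1 counted separately. Over the 148 windows matched for all members the shares were 14.9%, 6.08% and 73.0%, above those of all windows as well. Median GC content was 71.8% in these windows, 69.0% in those of all members matched and 58.7% over all windows. Such matches describe the letters only.

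In Control sh the run was well expressed. Its 11 genes summed to 13690, 13380 and 15124 counts in the 3 Control sh samples, or 661, 617 and 609 CPM (counts scaled to the sample's total). They made up 10.3% to 11.3% of all counts of the members. In VprBP sh the sum was 0 in every sample, where a count of 0 allows up to 3 counts, or 0.112 to 0.165 CPM. Set against this floor of 3 counts per sample, the run's normalized sum (14917 ± 830, SD, n = 3) was at least 5105-fold lower in VprBP sh. Floors of this kind cover counting error only.
PPL carried more reads than the other 10 genes together in each Control sh sample, with 7348, 6907 and 7565 counts in Control sh, and was at least 2646-fold lower in VprBP sh. UBN1, a subunit of the HIRA histone H3.3 chaperone complex, had 2506, 2439 and 2776 counts and was at least 934-fold lower. GLYR1, a nucleosome-binding factor of transcribed chromatin, had 1275, 1321 and 1608 counts and was at least 506-fold lower. In these genes no value of a Control sh sample came near the 0 of VprBP sh, a separation for which the run was chosen. MGRN1, an E3 ubiquitin ligase, had 883, 878 and 1103 counts in Control sh and was at least 345-fold lower. UBALD1 had 451, 469 and 638 counts and was at least 187-fold lower. ROGDI, mutated in Kohlschutter-Tonz syndrome, had 422, 489 and 510 counts and was at least 172-fold lower.
The remaining genes had lower counts, and the floor bounds their folds less tightly. ZNF500, a zinc finger gene, had 248, 307 and 296 counts in Control sh and was at least 103-fold lower. NUDT16L1, whose product TIRR binds the repair factor 53BP1, had 260, 290 and 280 counts and was at least 101-fold lower. ANKS3 had 222, 222 and 271 counts and was at least 86.2-fold lower. CDIP1, a proapoptotic p53 target, had 73, 54 and 73 counts and was at least 24.2-fold lower. DNAAF8 had 2, 4 and 4 counts in Control sh, too few to give a fold. Per kb of exon, PPL was also the highest of the run at 1004 normalized counts in Control sh, followed by UBN1 at 318 and GLYR1 at 273, with CDIP1 at 16.6 and DNAAF8 at 0.779.

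**Figure D1:**
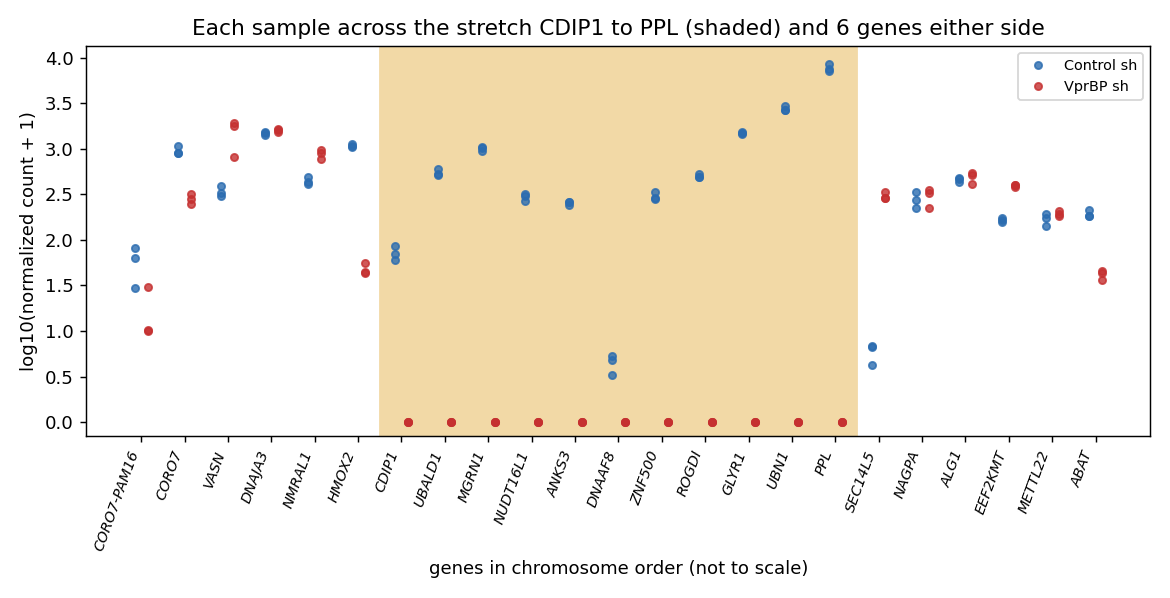
Normalized counts of each sample, as log10(normalized count + 1), for the 11 genes from CDIP1 to PPL (shaded) and 6 genes on either side with at least 20 normalized counts in a group. Every VprBP sh point of the shaded genes lies at 0, while HMOX2 on the left and SEC14L5 on the right have counts in both groups.

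Both borders of the run lay within a short distance. HMOX2, which encodes the constitutive heme oxygenase, ends 321 bases before the lowest coordinate of CDIP1. As CDIP1 is on the minus strand, this is its 3′ end and not its promoter. It had 1113, 1046 and 1071 normalized counts in Control sh against 42.4, 43.6 and 55.2 in VprBP sh, a 22.5-fold lower level (log2 fold change -4.49, SE 0.14). It was low in all 3 VprBP sh samples but not at 0, and its values did not overlap between groups. NMRAL1, a redox sensor gene that overlaps HMOX2, went the other way, with 408, 487 and 429 normalized counts in Control sh against 761, 886 and 962 in VprBP sh (log2 fold change 0.98, SE 0.12), just short of the 2-fold cutoff. DNAJA3, a mitochondrial DnaJ co-chaperone, had 1407, 1472 and 1506 normalized counts in Control sh against 1647, 1521 and 1616 in VprBP sh, a log2 fold change of 0.13.
At the far border, SEC14L5, a SEC14-like lipid-binding protein gene, overlaps the first 2412 bases of PPL on the opposite strand. It had 5.80, 3.26 and 5.69 normalized counts in Control sh against 336, 290 and 287 in VprBP sh, a 60.2-fold higher level (log2 fold change 5.91, SE 0.24). Of these 2 genes with overlapping 5′ ends, PPL had counts in Control sh alone and SEC14L5 had at most 6 counts in a Control sh sample. Beyond it, NAGPA, which uncovers the mannose 6-phosphate tag of lysosomal enzymes, had 277 ± 54.6 and 300 ± 66.9 normalized counts. ALG1, a mannosyltransferase of N-glycan assembly, had 455 ± 23.3 and 489 ± 67.6. The values of both genes overlapped between groups. EEF2KMT, a methyltransferase of elongation factor 2 of the FAM86 family, was higher in VprBP sh, with 158, 171 and 165 normalized counts in Control sh against 403, 400 and 381 in VprBP sh. A gap of 3.52 Mb without members followed, up to METTL22.

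Over the whole window the genes did not move as 1 block. Of the 141 members 132 passed edgeR's filter on low counts, and 53 of these (40.2%) passed both cutoffs used for a call (adjusted p-value below 0.05, difference above 2-fold), where 46.4% of all genes tested were called. Lower in VprBP sh were 34 members (25.8%, against 22.0% of all genes tested) and higher 19 (14.4%, against 24.5%). Without the run, 24 of 122 were called lower and 19 higher, but 15 lower and 21 higher with library size alone, and 20 lower and 21 higher without VprBP sh replicate 1. The median log2 fold change of the members was -0.19, also with genes off in VprBP sh at their bound, and -0.02 without the run, against 0.08 for all genes tested and 0.27 for the 507 other protein-coding genes of chromosome 16 tested. Scaled by library size alone, the members' median was 0.02 and that of all genes 0.29, so the sign turned while the members stayed below all genes. Since the window was chosen from this contrast, nothing is read from these shares. The groups did not overlap for 98 of the 132 (74.2%, against 79.5% of all genes tested).
Before the run, 15 of 94 genes tested were called higher and 16 lower, and the median log2 fold change was 0.04. Their normalized counts summed to 91596 ± 555 and 84982 ± 6405 (Control sh and VprBP sh, SD, n = 3), a ratio of 0.928. Beyond the 3.52 Mb gap, 2 of 24 genes were called higher (8.33%) and 8 lower (33.3%), and the median was -0.34. Their sums were 32245 ± 790 and 28196 ± 405, a ratio of 0.874. The medians and sums of these parts are given for upper quartile factors only. Since the members' median turned in sign with library size alone, no fall is read from these ratios. Neighbours outside the run had little in common in their fold changes. Spearman's rho between each gene and the next was 0.0228 over 121 pairs. With the run included it was 0.215 over 131 pairs, against 0.219 over 506 pairs for the rest of chromosome 16. The run was left out for its values, while the rest of the chromosome kept all its genes. The values 0.0228 and 0.219 are therefore not alike. All 3 are given as a description because neighbours can share reads. Of the 14 adjacent pairs outside the run in which both genes were called, 7 moved in opposite directions.

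**Figure D2:**
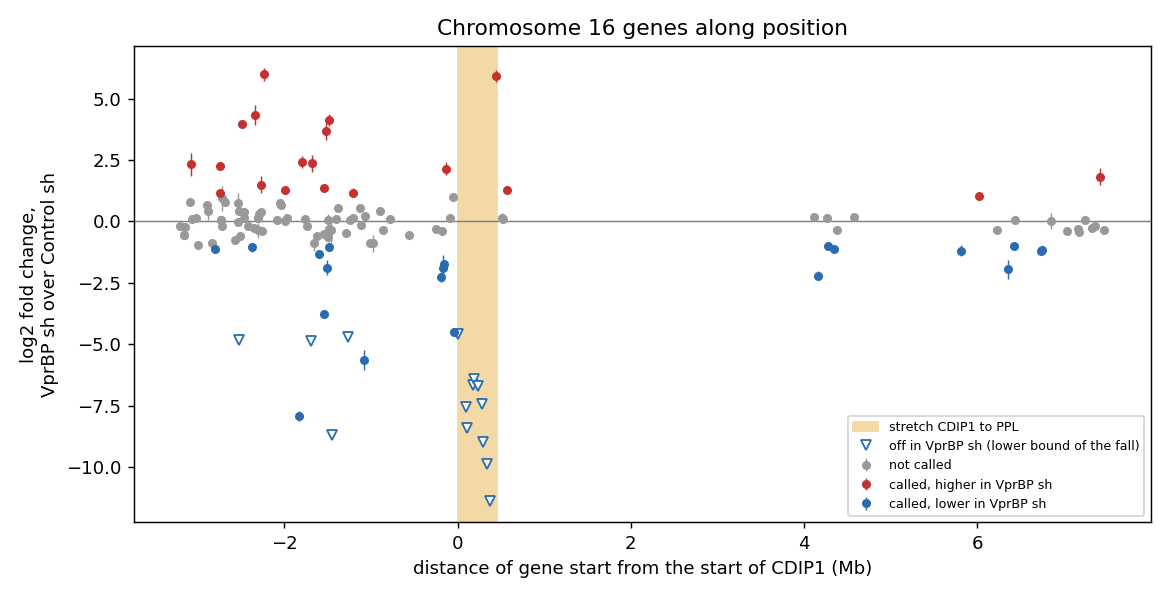
Log2 fold change of VprBP sh over Control sh for each gene tested, against the distance in Mb of its start coordinate from that of CDIP1. Start coordinates are the lowest of a gene on either strand. Error bars are 1 SE and open triangles are genes off in VprBP sh, drawn at the bound set by 3 counts. The shaded run holds 10 open triangles, SEC14L5 stands at 5.91 at its right edge, and called genes of both directions are scattered to its left.

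**Figure D3:**
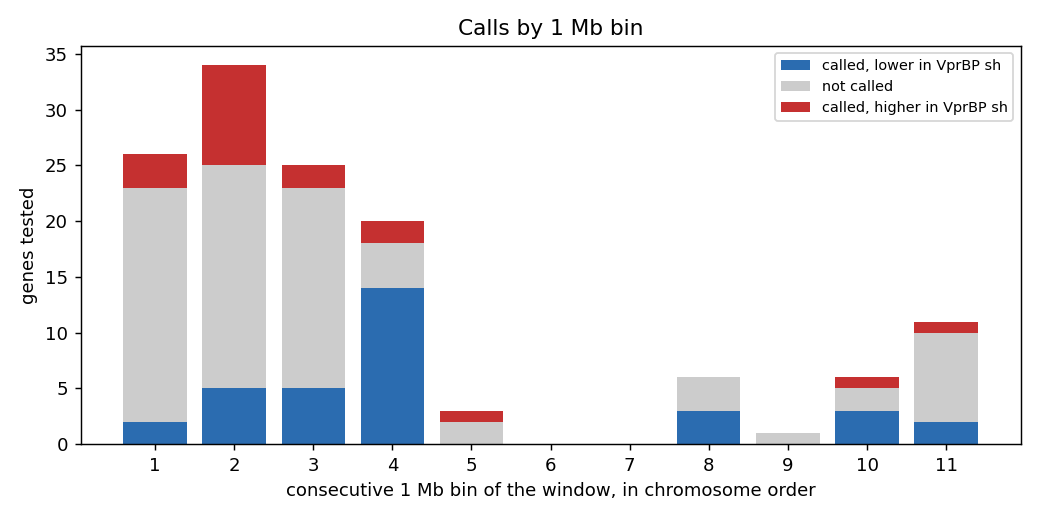
Number of genes tested in each consecutive 1 Mb bin of the window that were called lower, not called or called higher in VprBP sh. The bin from 4 to 5 Mb, which holds the run, has 14 genes called lower and 2 called higher of 20, and no gene was tested in the bins from 6 to 8 Mb.

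A gene was taken as off in VprBP sh when each of its 3 samples had at most 3 counts and the Control sh mean was at least 20 normalized counts. This held for 14 of the 141 members and for 4.22% of all protein-coding genes. The window was chosen for its run of such genes, so nothing is read from this difference. In the run lay 10 of the 14, and 4 were among the 130 members outside it. No member was off in Control sh by the same rule, against 1.76% of all protein-coding genes. The other 4 lay apart from each other, 1254 to 2516 kb before the run. IL32, an inflammatory cytokine gene, had 1337, 952 and 1126 counts in Control sh against 1, 0 and 0 in VprBP sh, at least 417-fold lower. PRSS21, a GPI-anchored serine protease, had 75, 71 and 98 counts and then 0 in every sample, at least 29.3-fold lower. SYNGR3, a synaptic vesicle gene, had 81, 68 and 84 counts and then 0, at least 28.2-fold lower. MEFV, the pyrin gene of familial Mediterranean fever, had 90, 59 and 63 counts and then 0, 1 and 0, at least 26.0-fold lower. Genes with counts in VprBP sh lay between each of these and the next.
Next to the threshold came KCTD5, an adaptor of cullin 3 ligases, with 1080, 1281 and 1414 counts in Control sh against 4, 3 and 10 in VprBP sh. Its normalized level was 243-fold lower (log2 fold change -7.92, SE 0.20). ZNF597, a maternally expressed imprinted gene, had 161, 217 and 278 counts and then 7, 6 and 1, 49.6-fold lower. Both stayed above 3 counts in a VprBP sh sample. The genes tested next to KCTD5, PDPK1 and PRSS27, had log2 fold changes of 0.13 and 2.41, and those next to ZNF597, ZNF174 and NAA60, -0.16 and 0.23. KCTD5 and these neighbours were chosen after their values were seen.
Read the same way over all protein-coding genes, 24 runs of at least 3 genes off in VprBP sh were found, 5 of them with at least 5. The run from CDIP1 to PPL had the most, at 10, followed by HOXD13 to HOXD1 on chromosome 2 with 8 and BEX4 to RAB40A on the X chromosome with 6. In the opposite direction there were 6 runs off in Control sh, the longest with 4 genes. These counts are a description and were not tested.

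Outside the run the largest differences were of both signs. ABCA3, a lipid transporter of lung surfactant lamellar bodies, had 20.9, 9.78 and 5.69 normalized counts in Control sh against 764, 793 and 704 in VprBP sh, 63.7-fold higher (log2 fold change 5.99, SE 0.27). BICDL2, a dynein adaptor gene, was 17.5-fold higher, at 52.9 ± 8.51 and 925 ± 275 normalized counts (SD, n = 3). SLC9A3R2, whose PDZ protein NHERF2 anchors membrane transporters, had 236, 168 and 214 normalized counts in Control sh against 2777, 3454 and 3382 in VprBP sh, 15.5-fold higher. The groups were far apart in all 3 genes, which were picked for large differences without overlap between groups. PRSS27, NME3, VASN and PAQR4 completed the 8 largest increases together with SEC14L5, at log2 fold changes of 2.41, 2.25, 2.15 and 1.37. VASN, a TGF-beta-binding membrane protein gene that lies inside CORO7 on the other strand, had 816 normalized counts in VprBP sh replicate 1 and 1921 and 1762 in the others.
Among decreases outside the run, KREMEN2, a receptor for the Wnt inhibitor Dickkopf, had 1164, 970 and 947 normalized counts in Control sh against 82.6, 79.0 and 63.6 in VprBP sh, 13.8-fold lower. GLIS2, a Kruppel-like zinc finger repressor, was 4.83-fold lower and CORO7, a Golgi coronin, 3.37-fold lower. ABAT, the GABA transaminase, was 4.65-fold lower. None of these 4 overlapped between groups, as was so for 79.5% of all genes tested.

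**Figure D4:**
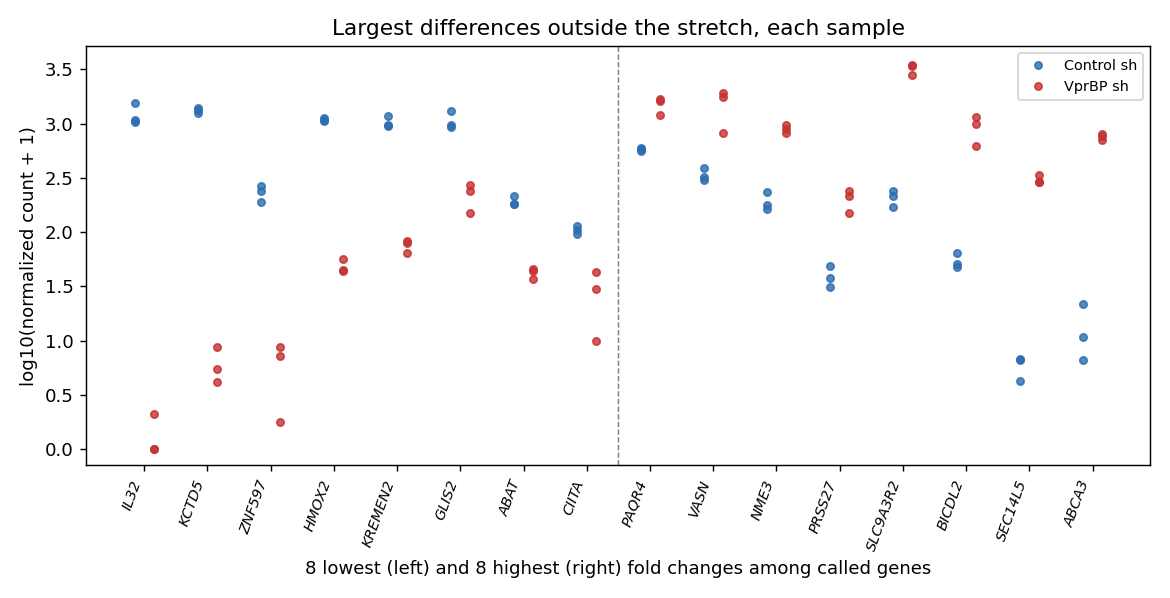
Normalized counts of each sample, as log10(normalized count + 1), for the 8 lowest and the 8 highest log2 fold changes among called genes outside the run whose samples did not overlap and whose higher group averaged 100 normalized counts or more. IL32 has 1 count in 1 VprBP sh sample and 0 in the others, and ABCA3 lies between 704 and 793 in VprBP sh.

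By role, the gene lists were compiled with earlier results of these data known and are described by their counts. Of all genes tested, 22.0% were called lower and 24.5% higher. Several lists hold genes of the run, whose 0 counts chose the window. Nothing is therefore read from a list's share called lower. Of 9 immune genes tested, 5 were called lower and 0 higher, and their median log2 fold change was -1.02, against 0.08 for all genes tested. Besides IL32 and MEFV these were CIITA, with 104 ± 9.51 and 26.5 ± 16.5 normalized counts (SD, n = 3), SOCS1, a feedback inhibitor of cytokine signalling, with 294 ± 41.8 and 130 ± 2.73, and DEXI. LITAF, a regulator of endosomal trafficking, was high in both groups at 5534 ± 450 and 4267 ± 195 and was not called. Of 12 genes in a mixed list of protein quality control and ubiquitin, 4 were called lower and 0 higher. These were UBALD1, MGRN1 and ROGDI from the run and, outside it, HCFC1R1. The list leaves out KCTD5, which was lower too, so it does not cover this role as a whole. USP7 (2917 ± 76.7 and 2306 ± 284) was not called. Of 12 transcription and chromatin regulators 4 were called lower and 0 higher. These were UBN1 and GLYR1 from the run and, outside it, ATF7IP2 and CIITA. CREBBP overlapped between groups at 2142 ± 152 and 2295 ± 104. Of 10 genome stability genes 3 were called lower, NUDT16L1 and UBN1 from the run and, outside it, RMI2. RMI2, a subunit of the BLM helicase complex, had 780 ± 63.5 and 340 ± 16.6. EME2, a genome stability gene left off this list, was called higher at 367 ± 39.3 and 812 ± 54.5. No common direction is read from the list.
Of 8 genes in a mixed list of epithelial junction and membrane genes, 4 were called higher and 1 lower, beside 24.5% and 22.0% of all genes tested. PPL was the gene lower. Those higher were SLC9A3R2, ABCA3, VASN and EMP2, a tetraspan membrane protein gene at 2792 ± 104 and 5691 ± 802 normalized counts. The claudin gene CLDN9 was not called (log2 fold change 0.04), so no rise of junction genes is read from this list. Of 18 genes of growth factor, mTOR and kinase signalling 2 were called higher and 5 lower, and TSC2 was not called (1975 ± 100 and 2185 ± 99.1). Of 19 metabolic enzymes 3 were called in each direction, and the median log2 fold change was 0.12. Of 13 zinc finger and SCAN genes tested 1 was called higher and 3 lower. Of 5 neuronal genes tested 2 were called in each direction, of 4 glycosylation genes 1 was called lower, and of 3 serine proteases 1 was called in each direction.
Per kb of exon the most abundant members in Control sh were ATP6V0C, a proton pump subunit, at 2784 normalized counts, TNFRSF12A, the TWEAK receptor, at 1374, TSR3 at 1173, LITAF at 1094 and JPT2 at 1070. In VprBP sh their levels per kb were 2782, 879, 808, 844 and 576. None of these 5 was called, and ATP6V0C overlapped between groups.

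Samples of a group lay close to each other for most members. The median coefficient of variation was 8.14% in Control sh over 120 genes and 11.1% in VprBP sh over 111. VprBP sh replicate 1 was below 60% of both other VprBP sh samples for 7 of the 111 genes, a cutoff chosen after the values were seen, and VASN and CIITA were among them. The 9 members not tested had at most 18 counts in any sample. Of these, ZSCAN10, ENSG00000285329 and DNAAF8 had 0 counts in every VprBP sh sample and at most 7 in Control sh. In the same window 55 genes of other types were in the table, of which 27 were tested, with 7 called higher and 3 lower (37.0% called, against 46.4% of all genes tested). The only gene of another type inside the run, the pseudogene SUB1P3, had 1, 3 and 6 counts in Control sh and 0 in each VprBP sh sample.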

How the data were processed

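Single-end reads were aligned by the authors with STAR to hg38 with a GENCODE annotation and quantified per gene in Partek. The deposited values are estimated counts per gene, neither normalized nor pooled, in 1 table of 21494 genes with a sum of 10 or more across the 6 samples. The design had assumed counts. The estimated counts were rounded to whole numbers here. All 6 samples entered edgeR 4.0.16 in R 4.3.3 (quasi-likelihood test, upper quartile factors at quantile 0.75, filter on low counts with a minimum of 10), which left 16756 genes, with Benjamini-Hochberg adjustment over all of them. This stands in for the authors' Gene Specific Algorithm. Calls required an adjusted p-value below 0.05 and a difference above 2-fold. Normalized counts are counts scaled by the effective library size, on which 3 counts equal 2.30 to 3.48. The SE equals the log2 fold change over root F. Folds against a group off in every sample are bounds against 3 counts per sample. Exon lengths came from GENCODE 44 and promoters from RefSeq (GRCh38.p14). Gene names and coordinates are those of the table, and 133 of the 141 members had the same coordinates in GENCODE 44. The named genes were the members off in a group, the 6 expressed members on either side of the run, the 8 largest increases and decreases (mean of at least 100 in the higher group), the 5 most abundant per kb, members of the role lists and DCAF1. Members and lists were chosen with earlier results of these data known. The tests were tried on simulated counts. Alternatives were TMM factors, library size alone, DESeq2 1.42.0, other filters and floors, a replicate block and leaving out each sample.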

Additional observations from a re-analysis of the deposited data

How the results depend on the processing

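The run from CDIP1 to PPL kept its 11 genes when off meant 0 counts or at most 10 counts, and had 12 over all gene types. Requiring 10 or more counts in each of the 6 samples, which removes genes off in a group, left 28 of 103 members called (16 lower, 12 higher). These 28 lie outside the run. Counted without the run, a count added after seeing the data, library size alone called 15 lower and 21 higher, and leaving out 1 sample gave 20 to 26 lower and 18 to 21 higher. The shares of all genes called with these settings and with that filter are not given here, so nothing is read from these counts. The median log2 fold change of the members was -0.29 with TMM factors, -0.31 with DESeq2, 0.02 with library size alone and 0.01 with that filter, where the median of all genes tested was -0.01, -0.04, 0.29 and 0.11. It ran from -0.23 to -0.15 when 1 sample was left out. The number of members off in Control sh was 3 with at most 10 counts, 1 with a minimum of 10 in the other group, and ran from 0 to 1 when 1 sample was left out (1 without Control sh replicate 3). DCAF1 had -0.37 with library size alone (adjusted p = 0.0851). ATP6V0C, at -0.00, had 0.21 with library size alone and 0.01 with the filter, and ran from -0.07 to 0.11 when 1 sample was left out. NAGPA had -0.00 and ALG1 -0.01 with DESeq2, and without 1 sample NAGPA ran from -0.02 to 0.29. NMRAL1 passed the 2-fold cutoff with library size alone (1.19) and without Control sh replicate 2 or VprBP sh replicate 1, and JPT2 with DESeq2 (-1.02). Same-numbered samples did not deviate together (correlations of -0.194, -0.066 and -0.153 over 12211 genes). With 3 samples a group, such correlations cannot exclude that the numbers pair samples. With a replicate block 53 members were called, 19 higher and 34 lower. With 3 samples a group, folds of genes off in VprBP sh are limited by depth and cannot be given beyond their bounds.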
